A study of Saccharomyces cerevisiae with 24 samples.

Results

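The genes of peroxisomal fatty acid breakdown in budding yeast, Saccharomyces cerevisiae, were followed through 8 groups of cultures. The set holds 10 genes, PXA1 (YPL147W), PXA2 (YKL188C), FAA2 (YER015W), LPX1 (YOR084W), POX1 (YGL205W), CTA1 (YDR256C), FOX2 (YKR009C), POT1 (YIL160C), ECI1 (YLR284C) and SPS19 (YNL202W), out of 5449 genes on the array. They were chosen by name, through the platform's gene symbols, and each had 1 probe set. All 10 passed, since no filter on low values was applied.

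Transcript levels were measured on 24 Affymetrix expression arrays, each with RNA of a separate chemostat culture. The reference strain, labelled wild type, a snf1Δ strain without the SNF1 gene, a tor1Δ strain without TOR1 and the double deletion snf1Δtor1Δ were each grown under glucose limitation (C-lim, 10 g/L glucose) and under ammonia limitation (N-lim, 1 g/L ammonium sulfate). All groups shared aerobic growth at 30 °C, pH 5.0 and a dilution rate of 0.1 per hour, and were sampled at steady state. Each group had 3 arrays, described as biological replicates. The p-values below thus measure the spread between such cultures, estimated per gene over all 8 groups together unless stated. The number of arrays limits the precision. The study asked how the Snf1 kinase and TOR complex 1 (TORC1) interact. The labels name neither the strain background nor the number of clones per deletion.

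In this yeast, fatty acids are broken down in peroxisomes and not in mitochondria. Acyl-CoA is brought in or made inside, oxidised with the release of hydrogen peroxide, hydrated, oxidised again and cleaved by a thiolase, with the release of acetyl-CoA. The genes are known for repression by glucose and induction by oleate through the factors Oaf1 and Pip2, with Adr1 as a further activator of several of them. Snf1, the yeast AMP-activated protein kinase, is needed for the release from glucose repression, and Tor1 is a kinase of TORC1, which promotes growth when nutrients are plentiful.

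Values are on the log2 scale of the deposited table, on which a difference of 1 is a 2-fold change. Changes carry the standard error (SE) of the limma fit, whose p-values were adjusted by Benjamini-Hochberg over all 5449 genes and called at 0.05. Counts at an unadjusted p under 0.05 describe the members only, since the share of all genes at that threshold was not computed. Group means below log2 3 are called the floor, where probe sets no longer rank transcripts, and a fold to the floor is a lower bound, computed against log2 3. Probe sets of different genes differ in brightness, so levels are compared between groups of the same gene only. As a check of the labels, the SNF1 probe set had a level of 2.15 in each group labelled as lacking SNF1, and the TOR1 probe set one of 2.27 in each group labelled as lacking TOR1, both under the floor. Elsewhere SNF1 had means of 8.75 to 8.95 and TOR1 of 6.94 to 7.86. Array medians lay between 7.79 and 7.97, and arrays of the same group correlated across genes with r of 0.993 to 0.999. In bulk RNA, fewer cells with a transcript and less transcript per cell cannot be told apart.

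A single array stood apart for these genes. On replicate 10 of snf1Δ in C-lim, all 10 members lay above the mean of the other 2 arrays of its group, by a median of 0.71 and a range of 0.28 to 1.18. On the 21 arrays of the other 7 groups, the median of the members' deviation from the rest of their group ran from -0.29 to 0.21. Over all genes this array was not unusual, with a root mean square deviation of 0.211 against 0.105 to 0.255 on the arrays of the other groups. Results that rest on it are given with and without it. The array was singled out by the levels of these same genes. Calls gained or lost without it thus describe its weight and are no independent evidence.

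**Figure D1:**
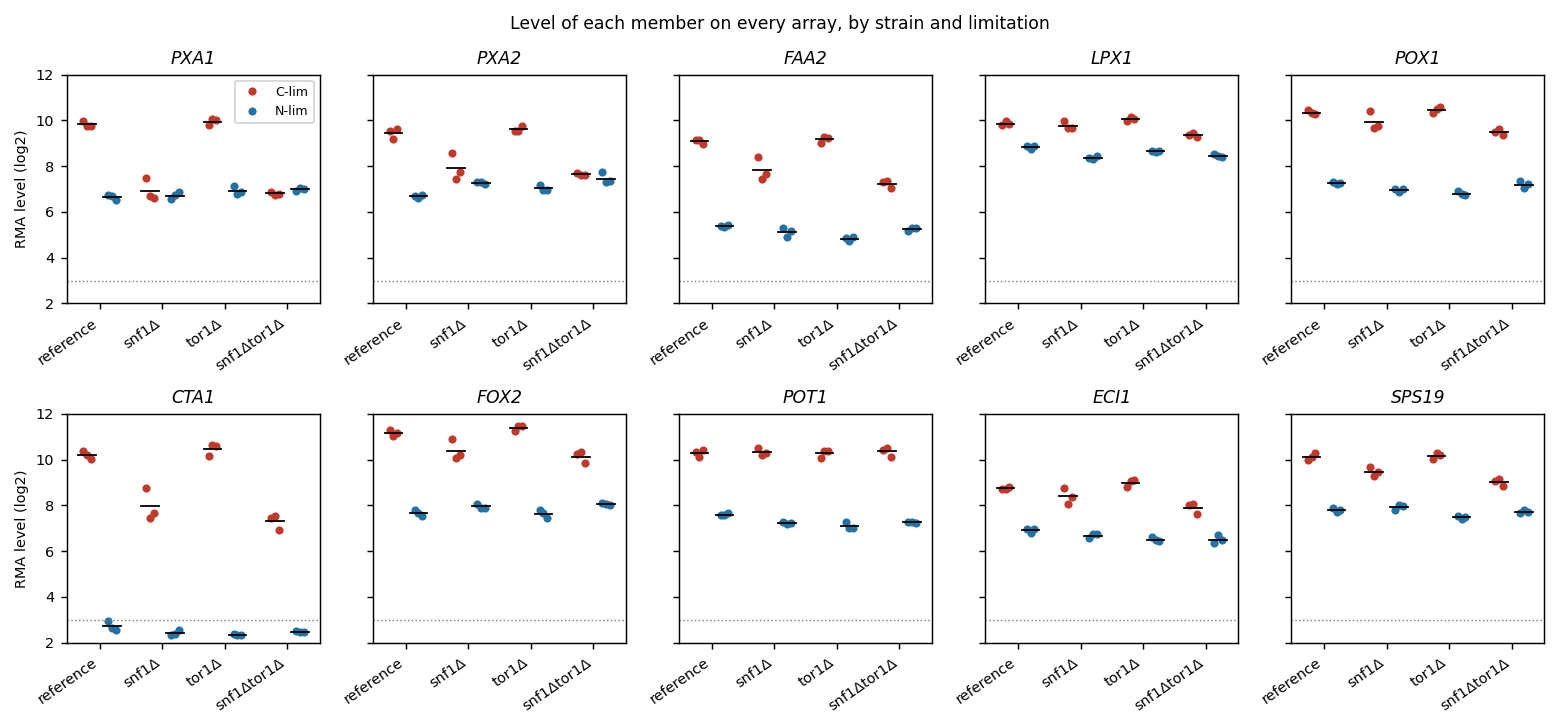
Level of each of the 10 genes (RMA value, log2) on every array, with the 4 strains along the horizontal axis and C-lim in red and N-lim in blue. Black lines are means of 3 arrays, and the dotted line is the floor at log2 3. CTA1 fell to the floor in N-lim in all strains, and PXA1 lay near its N-lim level in C-lim too in both strains without SNF1.

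The reference strain was compared between the limitations first. All 10 genes were lower under ammonia limitation, by 2.04-fold (LPX1) to at least 147-fold (CTA1), and all passed the test (adjusted p from 4.84e-15 to 1.96e-09). Of all genes, 25.5% passed with a lower level in N-lim, or 32.7% when arrays were centred on their medians, and 6.99% were at least 2-fold lower, as all 10 members were. The median change of the members was -2.93, beside 0.08 over all genes. The arrays of the 2 groups did not overlap for any member, which held for 66.7% of all genes.

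The import and activation genes are taken first. PXA1 and PXA2 encode the subunits of the ABC transporter that carries long-chain acyl-CoA into peroxisomes. PXA1 measured 9.97, 9.76 and 9.75 in the reference in C-lim and 6.75, 6.70 and 6.52 in N-lim. PXA2 measured 9.54, 9.20 and 9.62 in C-lim and 6.71, 6.60 and 6.74 in N-lim. Both were high in every C-lim array and low in every N-lim array, a fall of 8.99-fold for PXA1 (change -3.17 ± 0.17 SE, adjusted p = 5.67e-12) and of 6.83-fold for PXA2 (-2.77 ± 0.19, adjusted p = 3.00e-10). FAA2, for the acyl-CoA synthetase that activates medium-chain fatty acids inside the organelle, measured 9.13, 9.13 and 8.98 in C-lim and 5.37, 5.34 and 5.42 in N-lim, a 13.0-fold difference (-3.70 ± 0.17). LPX1, for a peroxisomal lipase, measured 9.79, 9.95 and 9.82 in C-lim and 8.86, 8.75 and 8.88 in N-lim. Its change of -1.03 ± 0.07 was the smallest of the 10.

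The genes of the oxidation cycle spanned a wider range. POX1, for the acyl-CoA oxidase that makes the first double bond and passes electrons to oxygen, measured 10.43, 10.33 and 10.26 in C-lim and 7.30, 7.21 and 7.24 in N-lim, an 8.50-fold difference (-3.09 ± 0.14). CTA1 encodes catalase A, which removes the hydrogen peroxide that the oxidase forms. It measured 10.40, 10.19 and 10.02 in C-lim and 2.94, 2.65 and 2.56 in N-lim, where all 3 arrays lay under the floor. FOX2 encodes the multifunctional enzyme for the hydratase and dehydrogenase steps. It measured 11.30, 11.03 and 11.16 in C-lim and 7.79, 7.67 and 7.56 in N-lim, an 11.2-fold difference (-3.49 ± 0.16). POT1, for the thiolase of the last step, measured 10.34, 10.11 and 10.43 in C-lim and 7.58, 7.56 and 7.65 in N-lim, a 6.47-fold difference (-2.69 ± 0.11). For these 4 genes, too, every C-lim array was above every N-lim array.

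The auxiliary enzymes for unsaturated fatty acids fell less than most of the core genes did, though this order was not tested. SPS19, for the dienoyl-CoA reductase, measured 9.97, 10.13 and 10.29 in C-lim and 7.89, 7.71 and 7.79 in N-lim, a 5.04-fold difference (-2.33 ± 0.11). ECI1, for the enoyl-CoA isomerase, measured 8.73, 8.73 and 8.79 in C-lim and 6.95, 6.79 and 6.98 in N-lim, a 3.59-fold difference (-1.84 ± 0.14).

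The tor1Δ strain was compared between the limitations in the same way. All 10 genes were again lower in N-lim (27.3% of all genes passed with a lower level), with CTA1, at the floor in N-lim, at least 176-fold lower. LPX1 changed least, at -1.41 ± 0.07, followed by ECI1 at -2.47, PXA2 at -2.58, SPS19 at -2.70, PXA1 at -3.02, POT1 at -3.17, POX1 at -3.66, FOX2 at -3.76 and FAA2 at -4.33. The median change was -3.09, beside 0.05 over all genes, and no member's arrays overlapped (67.9% of all genes).

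In snf1Δ, 9 genes were lower in N-lim (22.9% of all genes) and 8 of them at least 2-fold (5.05%). PXA1 was the gene that did not pass, with 7.50, 6.68 and 6.61 in C-lim and 6.54, 6.74 and 6.85 in N-lim. Its change of -0.22 ± 0.17 had a 95% interval of -0.57 to 0.13 (adjusted p = 0.283), and it was 0.07 without replicate 10 of snf1Δ in C-lim. PXA2 measured 8.55, 7.45 and 7.72 in C-lim and 7.31, 7.30 and 7.24 in N-lim, where the groups did not overlap but the lower C-lim arrays came close to the N-lim level. Its change was -0.62 ± 0.19 (adjusted p = 0.00936), which became -0.30 with an adjusted p of 0.0604 without replicate 10. With the 6 arrays of the compared groups alone its adjusted p was 0.119.

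The other 8 genes kept a large difference without SNF1. CTA1 was at least 31.1-fold lower in N-lim, POT1 8.58-fold (-3.10 ± 0.11), POX1 7.84-fold (-2.97 ± 0.14), FAA2 6.54-fold (-2.71 ± 0.17) and FOX2 5.40-fold (-2.43 ± 0.16). ECI1, SPS19 and LPX1 were 3.29-fold, 2.91-fold and 2.62-fold lower. The median change over the 10 members was -2.08, beside 0.04 over all genes.

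In snf1Δtor1Δ, 8 genes were lower in N-lim (23.0% of all genes), and the transporter genes were the 2 that did not pass. PXA1 measured 6.87, 6.75 and 6.80 in C-lim and 6.93, 7.05 and 7.01 in N-lim, a change of 0.19 ± 0.17 (95% interval -0.15 to 0.54, adjusted p = 0.337). Every N-lim array of PXA1 lay above every C-lim array, and with the 6 arrays of the compared groups alone it passed (adjusted p = 0.0242). PXA2 measured 7.70, 7.61 and 7.61 in C-lim and 7.73, 7.30 and 7.34 in N-lim, with overlapping arrays and a change of -0.18 ± 0.19 (95% interval -0.58 to 0.22, adjusted p = 0.44). Of the genes that passed, LPX1 changed least, at -0.91 ± 0.07, and CTA1 most, at least 19.7-fold. POT1 had a change of -3.09, beside -3.10 in snf1Δ and -3.17 in tor1Δ, and POX1, FOX2 and FAA2 had changes of -2.29, -2.08 and -1.98. The median of the members was -1.68, beside 0.06 over all genes.

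**Figure D2:**
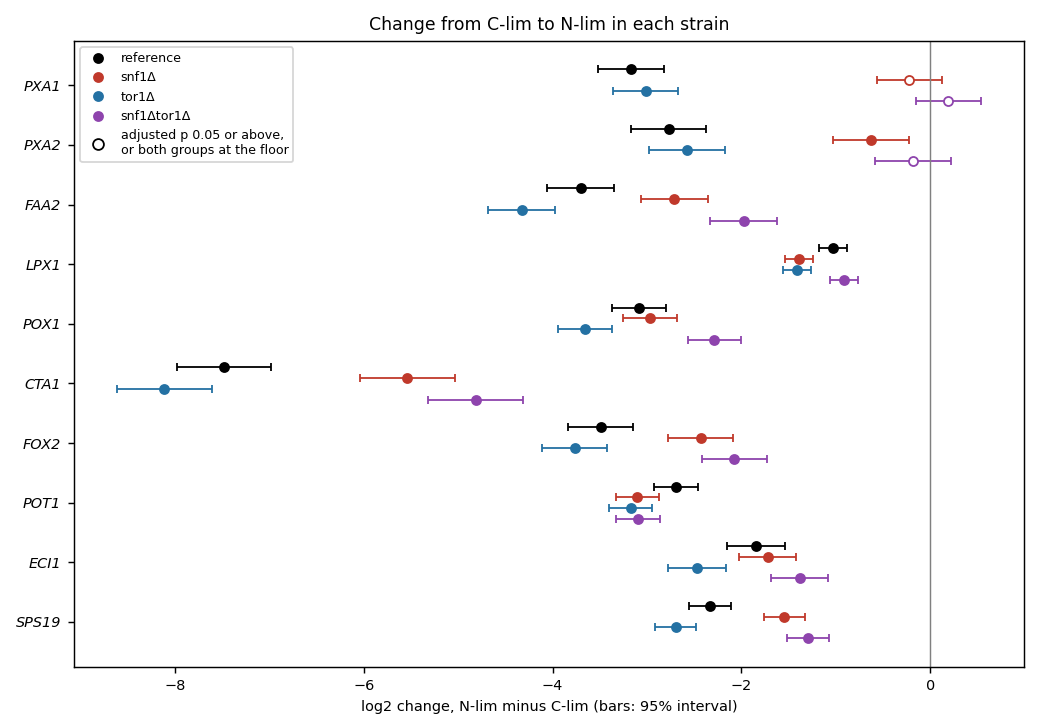
Change from C-lim to N-lim (log2) for each gene in each strain, with 95% intervals from the fit. Open points did not pass the test. PXA1 and PXA2 sat between -3.17 and -2.58 in the strains with SNF1 and between -0.62 and 0.19 in the strains without it, while POT1 sat between -3.17 and -2.69 in all 4.

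The loss of SNF1 was then examined within each limitation. Under glucose limitation, 8 members were lower in snf1Δ than in the reference (21.4% of all genes passed with a lower level), and PXA1, CTA1, PXA2 and FAA2 were at least 2-fold lower (6.06%). The median change of the members was -0.72, beside 0.10 over all genes. The arrays did not overlap for 6 members (61.0% of all genes). Both subunit genes of the transporter, the synthetase gene and the catalase gene were thus the ones furthest below the reference.

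PXA1 fell 7.44-fold, from 9.83 ± 0.12 (SD, n = 3) in the reference to 6.93 ± 0.49 in snf1Δ (change -2.90 ± 0.17 SE, adjusted p = 5.37e-11). CTA1 measured 8.74, 7.46 and 7.68 in snf1Δ, all below the lowest reference array at 10.02, a 4.73-fold difference (-2.24 ± 0.24, adjusted p = 2.25e-07). PXA2 fell 2.92-fold (-1.54 ± 0.19, adjusted p = 1.35e-06). The first of the 3 snf1Δ arrays, replicate 10, was the highest for each of these genes. FAA2 measured 8.39, 7.42 and 7.66 and was 2.38-fold lower (-1.25 ± 0.17, adjusted p = 4.04e-06), again with no overlap.

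The remaining genes moved less. FOX2 measured 10.89, 10.08 and 10.19 in snf1Δ (-0.78 ± 0.16, adjusted p = 0.00044), and SPS19 measured 9.68, 9.29 and 9.46 (-0.65 ± 0.11, adjusted p = 3.00e-05). POX1 measured 10.39, 9.67 and 9.75, and ECI1 8.76, 8.07 and 8.38. For POX1 and ECI1 replicate 10 lay within the reference range, and their changes of -0.40 ± 0.14 (adjusted p = 0.0147) and -0.35 ± 0.14 (adjusted p = 0.044) depended on single arrays. Without replicate 10 they were -0.63 (adjusted p = 2.32e-05) and -0.53 (adjusted p = 0.00271). With the arrays of the compared groups alone, neither POX1 nor ECI1 passed (adjusted p = 0.153 and 0.156). POX1 lost its call without replicate 9 of the reference (adjusted p = 0.056) and without replicates 11 and 12 of snf1Δ (0.101 and 0.0817). ECI1 lost its call without replicate 9, 10 or 11 of the reference (adjusted p = 0.0753, 0.0712 and 0.0998) and without replicate 11 or 12 of snf1Δ (0.282 and 0.094).

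POT1 and LPX1 did not pass. POT1 measured 10.52, 10.18 and 10.27 in snf1Δ, on both sides of the reference values, and its change was 0.03 ± 0.11 with a 95% interval of -0.20 to 0.26 (adjusted p = 0.852). LPX1 measured 9.95, 9.67 and 9.67, a change of -0.09 ± 0.07 with a 95% interval of -0.24 to 0.06 (adjusted p = 0.271). Without replicate 10, the array picked by these genes' own levels, LPX1 passed, at -0.19 (adjusted p = 0.0159), and POT1 stood at -0.07 (adjusted p = 0.676).

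To set these levels on a common footing, each gene's C-lim level without SNF1 was placed on the span between its own reference level in N-lim (0%) and in C-lim (100%), on the log2 scale, with the floor as the lower end for CTA1. In snf1Δ, PXA1 sat at 8.61% of its span and PXA2 at 44.3%, or at -0.37% and 32.6% without replicate 10. FAA2 followed at 66.1%, CTA1 at 68.9%, SPS19 at 71.9%, FOX2 at 77.7%, ECI1 at 81.1%, POX1 at 86.9%, LPX1 at 90.9% and POT1 at 101%. The arrays of neighbouring genes in this order overlapped, for example FAA2 with 55.3% to 81.5% and CTA1 with 61.9% to 79.8%, whereas PXA1 (-1.35% to 26.6%) did not overlap any other gene. The positions share the reference arrays and were not tested against each other.

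**Figure D3:**
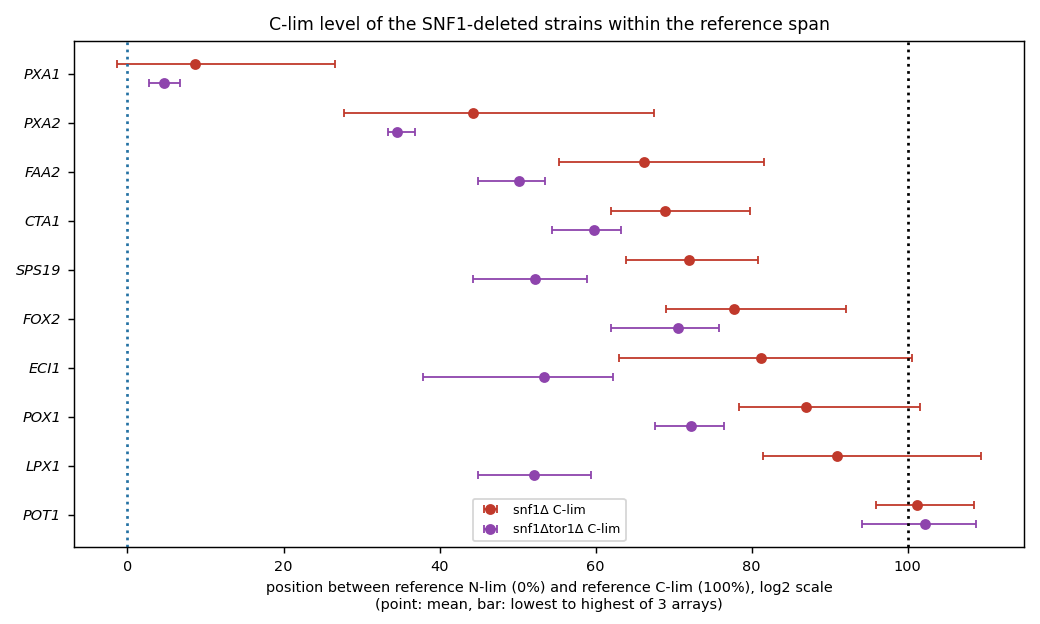
Position of each gene's C-lim level in snf1Δ (red) and snf1Δtor1Δ (purple) within the span from the reference in N-lim (0%) to the reference in C-lim (100%), on the log2 scale. Points are means and bars run from the lowest to the highest of 3 arrays. PXA1 was near 0%, POT1 near 100%, and the other 8 genes lay between.

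Under ammonia limitation, the loss of SNF1 left a mixed picture of small changes. POT1 and LPX1 were lower in snf1Δ (17.0% of all genes passed with a lower level) and PXA2 was higher (13.9%). POT1 measured 7.26, 7.19 and 7.23 (-0.37 ± 0.11, adjusted p = 0.0145), and LPX1 measured 8.37, 8.33 and 8.43 (-0.45 ± 0.07, adjusted p = 7.59e-05), each below every reference array. PXA2 measured 7.31, 7.30 and 7.24 against 6.60 to 6.74 in the reference, a change of 0.60 ± 0.19 (adjusted p = 0.0215). The call of PXA2 was lost without replicate 10 of the reference (adjusted p = 0.0688) and without replicate 9 or 10 of snf1Δ (0.0592 and 0.0554), and that of POT1 without replicate 11 of the reference (0.0546).

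The other 7 members did not pass in this comparison. CTA1 lay at the floor in both groups, with 2.33, 2.38 and 2.55 in snf1Δ. POX1 measured 7.01, 6.88 and 7.01 (-0.29 ± 0.14), FAA2 5.29, 4.88 and 5.17 (-0.26 ± 0.17), and ECI1 6.56, 6.74 and 6.76 (-0.22 ± 0.14). FOX2 measured 8.06, 7.90 and 7.90 (0.28 ± 0.16), SPS19 7.81, 8.03 and 7.95 (0.14 ± 0.11), and PXA1 had a change of 0.05 ± 0.17. The arrays did not overlap for 7 of the 10 members, with CTA1 at the floor not counted among the 7, beside 50.6% of all genes. The median change was -0.24, beside -0.0042 over all genes. With the 6 arrays of the compared groups alone POX1 (adjusted p = 0.00615) and FOX2 (0.029) passed as well, which made 5 members. The same 5 passed with the replicate number as a block when the snf1Δ C-lim arrays were left out, a fit chosen after seeing the data (POX1 adjusted p = 0.0171, FOX2 0.0276).

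Whether the loss of SNF1 acted differently in the 2 limitations was tested as the difference of its changes, N-lim minus C-lim. For 6 genes the difference was positive and passed (16.0% of all genes), meaning that the deletion lowered them more, or raised them less, in C-lim. It was 2.95 ± 0.23 for PXA1 (adjusted p = 1.16e-08), 2.15 ± 0.27 for PXA2 (adjusted p = 3.30e-06) and 1.94 ± 0.34 for CTA1 (adjusted p = 0.000119). CTA1 lay at the floor in both N-lim groups, so its value rests on the C-lim groups. FOX2 followed with 1.06 ± 0.23 (adjusted p = 0.00098), FAA2 with 0.99 ± 0.24 (0.0022) and SPS19 with 0.79 ± 0.15 (0.00026).

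POT1 and LPX1 differed in the opposite direction (30.9% of all genes), with -0.41 ± 0.16 (adjusted p = 0.0388) and -0.36 ± 0.10 (adjusted p = 0.00612). The value of POT1 depended on single arrays: it did not pass when replicate 10 of either C-lim group, or any of the 6 N-lim arrays, was left out (adjusted p from 0.0505 to 0.117), nor after median centring (0.055). POX1 and ECI1 did not pass, both at 0.12 (95% intervals -0.29 to 0.52 and -0.30 to 0.55). Without replicate 10 of snf1Δ in C-lim, POX1 passed (0.34, adjusted p = 0.0371), POT1 did not (-0.31, adjusted p = 0.117), and the other calls were the same.

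The loss of TOR1 alone changed these genes little in C-lim. No member passed against the reference (limma; 1.05% of all genes passed in either direction), and LPX1 was the 1 gene with an unadjusted p under 0.05 (0.19 ± 0.07, 95% interval 0.04 to 0.34, adjusted p = 0.215). LPX1 measured 9.95, 10.14 and 10.06 in tor1Δ. PXA1 measured 9.81, 10.04 and 10.00, and CTA1 10.15, 10.63 and 10.60. The changes of the 10 genes ran from -0.02 for POT1 to 0.26 for CTA1, with a median of 0.14 beside 0.03 over all genes, and the arrays overlapped for every member (they did not for 13.3% of all genes). The 95% interval was widest for CTA1 (-0.24 to 0.76), and those of FOX2 (-0.11 to 0.58), PXA2 (-0.24 to 0.56) and FAA2 (-0.27 to 0.44) reached on both sides of 0 as well.

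In N-lim, POT1 alone passed in tor1Δ, with 7.26, 7.03 and 7.03 against 7.56 to 7.65 in the reference (-0.50 ± 0.11, adjusted p = 0.0171). Of all genes 2.18% passed with a lower level (1.74% after a second quantile normalization). POT1 kept its direction but lost its call when any of 5 of the 6 arrays was left out (adjusted p from 0.0512 to 0.0785), the exception being replicate 9 of tor1Δ. At an unadjusted p under 0.05 the count was 6, all lower, with POT1, FAA2 at -0.54 ± 0.17, POX1 at -0.45 ± 0.14, ECI1 at -0.40 ± 0.14, SPS19 at -0.32 ± 0.11 and LPX1 at -0.19 ± 0.07. No share of all genes stands beside this unadjusted count. The arrays did not overlap for 8 of the 10 members, with CTA1 at the floor not counted among the 8, beside 20.7% of all genes. The transporter genes stood on the other side, with PXA1 at 0.27 ± 0.17 and PXA2 at 0.35 ± 0.19. FOX2, at -0.04 ± 0.16, overlapped. With the arrays of the compared groups alone POX1 (adjusted p = 0.0392) and FAA2 (0.0271) passed too. No member passed for a TOR1 effect that differed between the limitations (0.973% of all genes in either direction), while 6 had an unadjusted p under 0.05. LPX1 passed in that test without replicate 10 of the reference in C-lim (-0.43, adjusted p = 0.0462).

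The double deletion was lower than the reference for 9 of the 10 genes in C-lim (18.6% of all genes), and 6 were at least 2-fold lower (5.47%). The median change was -1.07, beside 0.13 over all genes, so that relative to the bulk of genes the members were lower by slightly more. PXA1 was 8.12-fold lower (-3.02 ± 0.17) and CTA1, with 7.44, 7.55 and 6.91, was 7.45-fold lower (-2.90 ± 0.24). FAA2, with 7.30, 7.36 and 7.04, was 3.59-fold lower, and PXA2 3.51-fold. SPS19 and FOX2 were 2.16-fold and 2.04-fold lower, POX1 and ECI1 each 1.81-fold and LPX1 1.41-fold. POT1 measured 10.40, 10.53 and 10.14 and did not pass (0.06 ± 0.11, 95% interval -0.17 to 0.29). The arrays of the other 9 did not overlap with the reference (62.2% of all genes).

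Against tor1Δ in C-lim, the double deletion gave the effect of losing SNF1 where TOR1 was already absent. In it 9 genes were lower (18.6% of all genes passed with a lower level), 7 of them at least 2-fold (5.27%), from -0.68 ± 0.07 for LPX1 to -3.16 ± 0.24 for CTA1, with PXA1 at -3.14 ± 0.17. POT1 again did not pass (0.08 ± 0.11, 95% interval -0.15 to 0.31). This comparison does not share arrays with that of snf1Δ and the reference. In it PXA1, PXA2, CTA1 and FAA2 had changes of -3.14, -1.97, -3.16 and -1.93, where snf1Δ against the reference had -2.90, -1.54, -2.24 and -1.25. Without the snf1Δ array that stood apart for these genes, the latter values were -3.18, -1.87, -2.63 and -1.54. The change of PXA1 was then no longer the larger one where TOR1 was absent, while those of PXA2, CTA1 and FAA2 were.

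**Figure D4:**
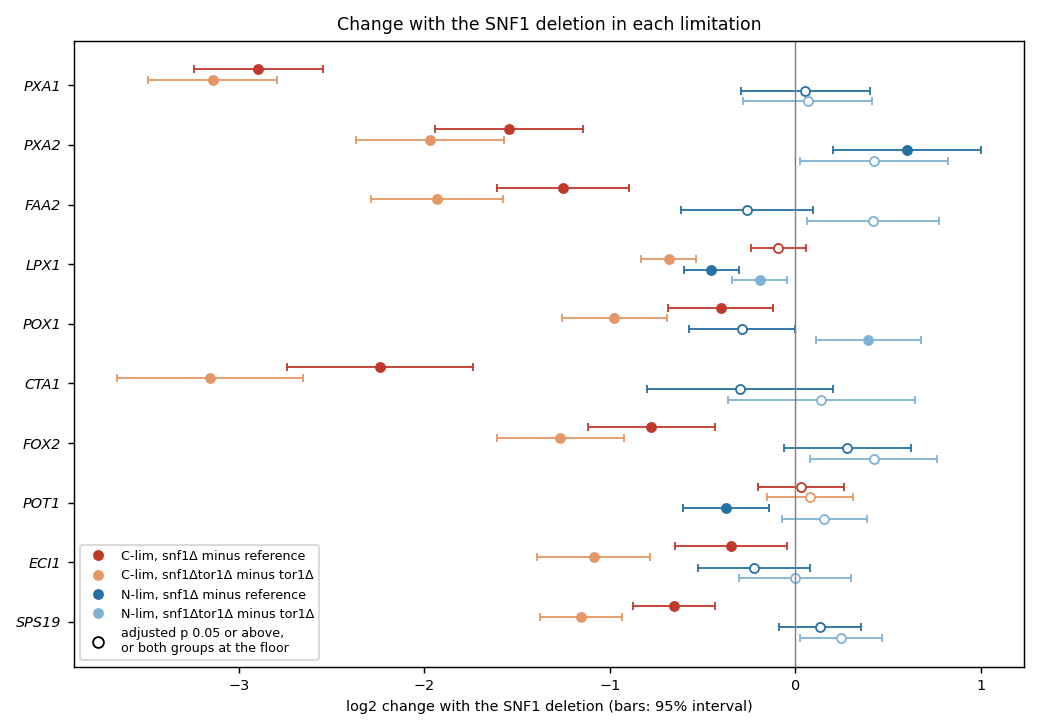
Change with the loss of SNF1 (log2, with 95% intervals) in C-lim (red: snf1Δ minus reference, orange: snf1Δtor1Δ minus tor1Δ) and in N-lim (dark and light blue). Open points did not pass or lay at the floor in both groups. PXA1 lay between -3.14 and -2.90 in C-lim and near 0 in N-lim, and POT1 near 0 in C-lim.

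Against snf1Δ in C-lim, 5 genes were lower in the double deletion (6.40% of all genes, or 8.50% after median centring). LPX1 measured 9.36, 9.44 and 9.29 (-0.40 ± 0.07, adjusted p = 0.000878), and SPS19 9.05, 9.17 and 8.83 (-0.46 ± 0.11, adjusted p = 0.00624). ECI1 measured 8.02, 8.06 and 7.60 (-0.51 ± 0.14, adjusted p = 0.0204), FAA2 changed by -0.59 ± 0.17 (adjusted p = 0.0217), and POX1, with 9.49, 9.61 and 9.34, by -0.46 ± 0.14 (adjusted p = 0.0268). The arrays did not overlap for 5 of the 10 members, beside 35.1% of all genes in either direction. They were the same 5 genes, each lower on every array of the double deletion. Since the test picked them on these arrays, this adds no support. Without replicate 10 of snf1Δ, only LPX1 (-0.30, adjusted p = 0.0045) and SPS19 (-0.36, adjusted p = 0.0404) passed, and with the 6 arrays of the 2 groups alone none did, with adjusted p from 0.0617 to 0.211 for the 5 genes. Without replicate 1 or 3 of the double deletion, 3 and 2 passed. FOX2, with 10.25, 10.32 and 9.84, did not pass (-0.25 ± 0.16). CTA1 did not pass either (-0.66 ± 0.24, adjusted p = 0.0692), though it did after median centring (0.0391). Leaving out replicate 10 of snf1Δ put FOX2 at -0.0019 (adjusted p = 0.999) and CTA1 at -0.26 (adjusted p = 0.357).

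The interaction of the 2 deletions, the change in the double deletion beyond the sum of the single ones, passed in C-lim for LPX1 (-0.59 ± 0.10, adjusted p = 0.00172) and ECI1 (-0.74 ± 0.20, adjusted p = 0.0382), both lower (2.86% of all genes). Against the reference, LPX1 changed by -0.09 in snf1Δ, 0.19 in tor1Δ and -0.49 in snf1Δtor1Δ. ECI1 changed by -0.35, 0.23 and -0.86. The call of LPX1 held without replicate 10 of snf1Δ (-0.50, adjusted p = 0.00187) and that of ECI1 did not (-0.56, adjusted p = 0.0977). ECI1 also lost its call without replicate 9 or 11 of the reference, replicate 12 of snf1Δ, replicate 8 or 9 of tor1Δ, or replicate 1 or 3 of snf1Δtor1Δ (adjusted p from 0.0509 to 0.0959). Without replicate 11 of snf1Δ, 6 members passed. Of the 8 genes that did not pass, POX1, FOX2, CTA1, FAA2 and SPS19 had an unadjusted p under 0.05, all negative. SPS19 was nearest to the threshold (-0.50 ± 0.15, adjusted p = 0.0567) and passed after median centring (0.0387). Leaving out replicate 10 of snf1Δ, POX1, FOX2, CTA1, FAA2 and SPS19 stood at -0.35, -0.24, -0.52, -0.39 and -0.40. Their adjusted p then ran from 0.156 to 0.565. PXA1, PXA2 and POT1 had -0.25 ± 0.23, -0.43 ± 0.27 and 0.04 ± 0.16.

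In N-lim the double deletion differed little from the other strains. Against the reference, POT1 (7.28, 7.28 and 7.23), ECI1 (6.36, 6.69 and 6.48) and LPX1 (8.53, 8.44 and 8.38) were lower, with changes of -0.34 ± 0.11 (adjusted p = 0.0202), -0.40 ± 0.14 (0.0352) and -0.38 ± 0.07 (0.000329), beside 16.2% of all genes. PXA2 was higher, by 0.78 ± 0.19 (adjusted p = 0.00316), beside 23.7% of all genes. The call of ECI1 was lost without replicate 9 or 11 of the reference or replicate 1 or 3 of the double deletion, and that of POT1 without replicate 11 of the reference or replicate 3 of the double deletion (adjusted p from 0.0572 to 0.133 over these). Against tor1Δ, POX1 was higher (0.39 ± 0.14, adjusted p = 0.0313) and LPX1 lower (-0.19 ± 0.07, adjusted p = 0.0434), beside 21.5% and 11.8% of all genes (14.4% and 16.0% after median centring, 15.0% and 15.9% after a second quantile normalization). Both calls rested on single arrays, since 0 or 1 passed when any 1 of the 6 arrays was left out. Against snf1Δ no member passed (limma; 10.5% of all genes passed in either direction), and 0 had an unadjusted p under 0.05. The interaction in N-lim passed for no member (0.661% of all genes, or 0.312% after median centring and 0.257% after a second quantile normalization), with 4 genes, POX1, POT1, FAA2 and LPX1, at an unadjusted p under 0.05.

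The 10 genes were alike but not uniform in their order over the 8 groups. The mean level was highest in tor1Δ in C-lim for 9 of them and in snf1Δtor1Δ in C-lim for POT1, though neither was set apart from the reference in C-lim by the test. The correlation of each gene's 8 group means with the members' mean profile, a description over groups that share the array platform, was 0.986 to 0.999 for POX1, FOX2, CTA1, FAA2, SPS19 and ECI1. It was 0.97 for LPX1, 0.94 for POT1, 0.92 for PXA2 and 0.81 for PXA1. The mean profile includes each gene itself, so part of each member's correlation was fixed in advance. The genes were centred but not scaled, so those with a wide range weigh most. CTA1, at the floor in N-lim, spanned 8.11 over the group means, against 1.67 to 4.33 for the others. By the same measure over 8 group means, the genes outside the set most like the mean profile were SUE1 (r = 0.997), RRT6 (0.996), IDP2 (0.996), TES1 (0.995) and PEX11 (0.994), among genes whose group means spanned at least 1 on the log2 scale.

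The regulators and helper genes of the pathway were read from lists of names. ADR1, for the zinc-finger activator, fell by 3.04 ± 0.14 from C-lim to N-lim in the reference (adjusted p = 1.10e-12), while OAF1, PIP2 and OAF3 rose, by 0.56, 0.64 and 0.82. Without SNF1 in C-lim, ADR1 had a change of 0.01 ± 0.14 (adjusted p = 0.998), with means of 7.66 in the reference and 7.67 in snf1Δ, and its change to N-lim in snf1Δ was -3.33 ± 0.14. OAF1 did not pass either (0.07 ± 0.10), and PIP2 and OAF3 were higher by 0.54 and 0.48. Of the 6 further genes known as Adr1 targets, ADH2, ACS1, ADY2, GUT1, GUT2 and ALD4, all 6 fell from C-lim to N-lim in the reference (25.5% of all genes) and all 6 were lower in snf1Δ in C-lim (21.4%), with changes of -0.81 (ALD4) to -8.20 (ADH2). ADH2 and ADY2 were also higher on replicate 10 of snf1Δ than on the other 2 arrays.

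Of 13 measured helper enzymes and carriers, 9 fell (8 after a second quantile normalization, without FAA4) and 3 rose from C-lim to N-lim in the reference, with a median of -0.60. Of all genes 25.5% fell and 41.3% rose (32.7% and 33.8% after median centring). CAT2, for carnitine acetyltransferase, had a change of -3.21 ± 0.14, IDP3, for the peroxisomal NADP-dependent isocitrate dehydrogenase, one of -3.21 ± 0.17 and DCI1, a paralog of ECI1, one of -2.69 ± 0.16. PNC1, for a nicotinamidase found in peroxisomes, fell by 1.56 ± 0.10. FAT1, FAA1 and CIT2 rose, by 0.88, 0.88 and 0.86, and ANT1, for the peroxisomal ATP carrier, did not pass (0.16 ± 0.10). In snf1Δ in C-lim, 9 were lower and 4 higher than in the reference, beside 21.4% and 40.3% of all genes, with a median of -0.57. PNC1, IDP3 and DCI1 were lower, with changes of -1.52 ± 0.10, -1.34 ± 0.17 and -1.14 ± 0.16. CIT2, for the peroxisomal citrate synthase, was higher by 2.01 ± 0.10, ANT1 by 0.62 ± 0.10, FAT1 by 0.58 ± 0.06 and MDH3, for the peroxisomal malate dehydrogenase, by 0.22 ± 0.07. In tor1Δ no helper gene passed in either limitation. Of all genes, 1.05% passed there in C-lim in either direction. In N-lim, 2.18% passed with a lower level. In either direction, 2.55% passed in N-lim after median centring and 2.72% after a second quantile normalization.

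The genes of peroxisome assembly and division moved in both directions. Of 27 measured, 11 fell and 6 rose from C-lim to N-lim in the reference, with a median of -0.15 (14 and 4 after median centring, 14 and 5 after a second quantile normalization), beside 25.5% and 41.3% of all genes. In snf1Δ in C-lim 11 were lower and 9 higher, with a median of -0.06, beside 21.4% and 40.3% of all genes. PEX18, a co-receptor for import, had a change of -2.84 ± 0.22 in the reference, PEX2 one of -1.54 ± 0.07 and PEX11, for the protein of peroxisome division, one of -0.97 ± 0.06, and PEX31 rose by 0.93 ± 0.09.

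**Figure D5:**
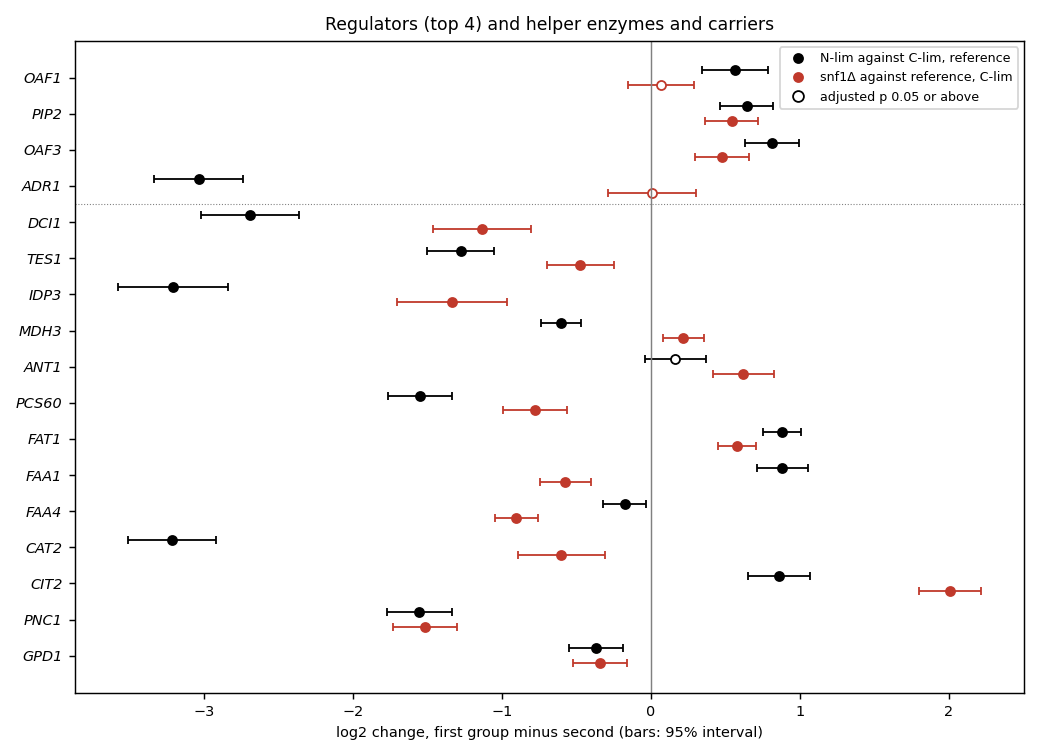
Change (log2, with 95% intervals) of 4 regulator genes and 13 helper genes from C-lim to N-lim in the reference (black) and with the loss of SNF1 in C-lim (red). Open points did not pass the test. ADR1 moved by -3.04 with the limitation and by 0.01 with the deletion, and CIT2 rose in both.

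Mating and meiosis genes served as a check of the cell state, since the labels do not give the mating type. All 7 measured a-specific genes were above the floor in every group and rose from C-lim to N-lim in the reference (41.3% of all genes), and all 7 were higher in snf1Δ in C-lim (40.3%), moving opposite to the members. The log2 of their summed levels was 12.04 to 12.16 in the reference in C-lim, 14.83 to 14.92 in N-lim, 13.71 to 13.81 in snf1Δ in C-lim and 14.61 to 14.64 in snf1Δ in N-lim. In tor1Δ it was 12.17 to 12.28 in C-lim and 14.74 to 14.86 in N-lim, and in snf1Δtor1Δ 13.87 to 13.99 and 14.61 to 14.82. Of 4 alpha-specific genes 1, MF(ALPHA)2, lay at the floor in every group, and the summed level ran from 7.03 to 7.75 over the C-lim arrays and from 9.73 to 12.14 over the N-lim arrays. Of 11 genes of meiosis and sporulation, 4 to 8 lay at the floor in each group. The part of these differences in the changes of the members was not tested.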

How the data were processed

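Transcript levels were read from the deposited table of 24 Affymetrix arrays, whose log2 values the authors made with the tools RMA and affy (named in the submitters' processing notes, per the labels). Neither their versions nor which arrays were normalized together was recorded in the labels. RMA values have no control spots or depth of their own, and their floor compresses changes of dim genes.

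Of 5716 probe sets, 5498 had 1 gene in the platform table, 0 had several, and 218 are not listed there and were kept out of the tests. For 47 genes the brightest of several probe sets was used, which left 5449 genes. Names were updated for 12 genes from the RefSeq table of assembly R64. A linear model of 8 group means was fitted per gene (limma 3.58.1, R 4.3.3; 16 residual degrees of freedom, prior 1.71), and 18 comparisons were drawn, with Benjamini-Hochberg adjustment within each and a threshold of 0.05. A call also needs 1 of the compared means at or above log2 3. Comparisons that share a group share its deviations. The fit was tested on simulated data.

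All 10 members are named, and of each other list up to 4 genes with the largest change past the threshold, every gene of a count of 5 or fewer, and the 5 genes most like the members. Members, lists and tests were chosen with earlier results of these data known. The helper list's PXP1 was not analysed here, and 27 of 29 assembly genes were measured.

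Titles give culture numbers that some groups share. Of 33 pairs of arrays with equal numbers, 22 had a correlation of their deviations over 0.1 (median 0.20, against -0.04 for 219 pairs with different numbers). Every pair was over 0.1 for the 2 limitations in the reference (0.231 to 0.372) and in snf1Δtor1Δ (0.12 to 0.199), and for snf1Δ against the reference in N-lim (0.169 to 0.279), which was taken to pair those cultures. For tor1Δ against the reference in N-lim the pairs had 0.018, 0.437 and 0.209, so not every pair was over 0.1. Alternatives were 2 other scalings, floor treatments, the mean of probe sets, a robust prior, the compared arrays alone, the replicate block and each array left out.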

Additional observations from a re-analysis of the deposited data

Results flagged for a closer look

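These 10 results stood out because an effect of a deletion differed, by a test of the difference itself, between 2 backgrounds or 2 limitations. For the loss of SNF1, N-lim minus C-lim on the log2 scale, these were PXA1 at 2.95, PXA2 at 2.15, FOX2 at 1.06, FAA2 at 0.99 and SPS19 at 0.79, which were lower without SNF1 in C-lim and did not fall to that extent in N-lim, CTA1 at 1.94, which was lower without SNF1 in C-lim and at the floor in both N-lim groups, and POT1 at -0.41 and LPX1 at -0.36, which were lower without SNF1 in N-lim. For the interaction of the 2 deletions in C-lim they were ECI1 at -0.74 and LPX1 at -0.59, lower in the double deletion than the sum of the single deletions. The calls of POT1 and of ECI1 depended on single arrays, as given above. With 3 arrays per group, no search for a single deviating array by its gap was made.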

How the results depend on the processing

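No change of a member turned its direction under any alternative where it was called. Under the settings that left out no single array, 1310 changes of single members kept their direction and their side of the threshold, 13 lost a call and 28 gained one, and with 1 array left out these were 1214, 57 and 11. A further 19 and 38 changes, called in neither fit, turned their sign (sizes up to 0.18 and adjusted p of at least 0.38 in the alternative), PXA1 in snf1Δ between the limitations among them. The count of members called stayed within 1.5 times in 125 cases under the former settings and moved further in 12. With the arrays of the compared groups alone, the spread comes from fewer arrays and is not shared by all 8 groups. The count was then 5 for snf1Δ against the reference in N-lim (3 in the full fit) and 3 for tor1Δ against the reference in N-lim (1). It was 0 for the double deletion against snf1Δ in C-lim (5) and 5 against tor1Δ in N-lim (2). It was 1 for the interaction in C-lim (2), 2 for that in N-lim (0) and 1 for the TOR1 effect (0). The members' SD was 0.16 to 0.69 in snf1Δ in C-lim and 0.04 to 0.20 in the reference in N-lim. The part of this unequal spread in the counts was not tested. For the double deletion against tor1Δ in N-lim, 1 was called after a second quantile normalization, and 4 with floor genes left out and 4 with an intensity trend and robust prior; the cause was not tested.

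With 1 array left out, counts ran from 1 to 6 for the interaction in C-lim, 0 to 1 for the TOR1 effect, 0 to 1 for tor1Δ against the reference in N-lim, 2 to 4 for the double deletion against the reference in N-lim, 2 to 6 against snf1Δ in C-lim and 0 to 1 against tor1Δ in N-lim.

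With the replicate block, possible for 7 of 18 comparisons, the counts were 10 for the limitations in the reference, 9 in snf1Δ and 8 in snf1Δtor1Δ, 6 and 3 for snf1Δ against the reference in C-lim and N-lim, 1 for tor1Δ in N-lim and 8 for the SNF1 effect. The 2 calls lost were POX1 (-0.27, adjusted p = 0.155) and ECI1 (-0.34, adjusted p = 0.116) in snf1Δ against the reference in C-lim, and the block on all arrays changed no other call. All 8 pairs of equal numbers that include snf1Δ in C-lim had deviations that ran against each other (correlations of -0.30 to -0.06). Its arrays correlated at 0.24 to 0.54 with the reference arrays 1 number lower. This shift was seen in the data, deviations within a group are not independent, and the labels do not say what the numbers mean. Whether its numbers are misaligned was not tested, so its blocked counts rest on an uncertain pairing. The snf1Δ C-lim arrays were then left out of the block, a setting chosen after seeing the data. The count was 5 for snf1Δ and 3 for tor1Δ against the reference in N-lim (3 and 1 in the full fit). POX1 and FOX2 were gained in the former and POX1 and FAA2 in the latter. For tor1Δ and the reference in N-lim, replicate 9 correlated at only 0.018, so that pairing is uncertain too. The counts were 10 and 8 as before for the limitations in the reference and snf1Δtor1Δ. No paired analysis was possible for the other comparisons because their groups share fewer than 2 numbers.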
